A study of Homo sapiens with 12 samples.

Results

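Secretory lineage transcription factors of the intestine were followed across 12 libraries of LS180 cells, as a set of genes chosen by name: ATOH1, SPDEF, CREB3L1, GFI1, FOXA1, FOXA2, FOXA3, NEUROG3, INSM1 and BHLHA15. They are 10 of the 60671 genes in the count table and were chosen with earlier results of these data known. A share of them called, set beside that of all genes, is therefore a description. All 10 had enough reads to be tested. Inducing wild-type SOX9 for 24 h lowered 4 of them: ATOH1 to 41.9% of its uninduced level, SPDEF to 43.2%, CREB3L1 to 46.6% and FOXA3 to 65.2%. None of the 10 was called higher, and none was called in either direction after induction of truncated SOX9 or of GFP. Of the 18219 genes tested, 1.16% were called lower with wild-type SOX9. With truncated SOX9 0.00549% were called in either direction, and with GFP 0%. The difference of the wild-type response from each of these 2 passed the test for ATOH1, SPDEF and CREB3L1, and from neither for FOXA3. LS180 is an established human colorectal cancer line that makes intestinal mucins. Each of 3 derivative lines carries a doxycycline-inducible construct, and polyadenylated RNA was sequenced with and without 0.5 µg/ml doxycycline for 24 h, in 2 libraries per group. The GFP line expresses GFP as the control, the SOX9 line a V5-tagged wild-type SOX9, and the M303 line a V5-tagged mutant that the series describes as truncated. The uninduced groups are the same lines without the drug, so the parental LS180 background and a construct are common to all 6 groups. Each construct is in its own line, so construct and line cannot be told apart, and nothing in the labels says whether a line is 1 clone. The labels call the libraries duplicates and do not name separate cultures, so a p-value here reflects the spread between samples that may be technical copies.

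In the gut, a progenitor cell chooses between the absorptive and the secretory fate. ATOH1, a basic helix-loop-helix factor that Notch signalling restrains through HES1, opens the secretory fate for goblet, Paneth, enteroendocrine and tuft cells, and GFI1, a zinc finger repressor, acts below it and holds back the endocrine branch. SPDEF, an ETS factor, and CREB3L1, a membrane-bound bZIP factor that is released from the endoplasmic reticulum, act in goblet cell maturation and secretion, and the forkhead factors FOXA1, FOXA2 and FOXA3 bind mucin genes and take part in goblet and endocrine differentiation. NEUROG3 starts the enteroendocrine branch, INSM1 acts within it, and BHLHA15 (MIST1) enlarges the secretory apparatus of gland cells.

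Promoter windows of 250 bases before to 50 bases after the start site were taken from RefSeq (GRCh38.p14) and matched 8 of the 10 factors. FOXA2 and INSM1 had no entry. The windows of the 4 factors that fell are shown, with that of FOXA1 as a forkhead relative that did not pass the test. They lie at chr4:93828503-93828802 (ATOH1, plus strand), chr6:34556280-34556579 (SPDEF, minus strand), chr11:46294909-46295208 (CREB3L1, plus strand), chr19:45864076-45864375 (FOXA3, plus strand) and chr14:37595200-37595499 (FOXA1, minus strand). Each is written 5′ to 3′ on the gene's strand, and capitals mark matches on either strand to the motifs searched.
ATOH1 promoter: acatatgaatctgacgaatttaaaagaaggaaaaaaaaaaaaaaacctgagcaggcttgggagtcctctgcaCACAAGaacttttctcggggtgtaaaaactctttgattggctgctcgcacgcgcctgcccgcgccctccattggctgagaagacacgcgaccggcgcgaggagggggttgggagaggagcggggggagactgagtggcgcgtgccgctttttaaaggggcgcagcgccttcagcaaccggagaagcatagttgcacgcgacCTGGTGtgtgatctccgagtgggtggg
SPDEF promoter: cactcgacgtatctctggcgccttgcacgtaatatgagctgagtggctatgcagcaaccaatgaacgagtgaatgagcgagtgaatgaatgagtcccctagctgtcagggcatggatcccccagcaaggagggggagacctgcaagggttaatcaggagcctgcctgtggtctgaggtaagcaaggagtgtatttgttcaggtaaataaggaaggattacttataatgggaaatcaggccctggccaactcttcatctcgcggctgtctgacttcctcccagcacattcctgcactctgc
CREB3L1 promoter: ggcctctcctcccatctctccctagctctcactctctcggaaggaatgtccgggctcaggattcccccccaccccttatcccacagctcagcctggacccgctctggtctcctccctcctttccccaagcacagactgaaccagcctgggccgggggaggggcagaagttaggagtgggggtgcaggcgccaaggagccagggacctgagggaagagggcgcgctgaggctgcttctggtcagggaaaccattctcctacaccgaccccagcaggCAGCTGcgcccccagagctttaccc
FOXA3 promoter: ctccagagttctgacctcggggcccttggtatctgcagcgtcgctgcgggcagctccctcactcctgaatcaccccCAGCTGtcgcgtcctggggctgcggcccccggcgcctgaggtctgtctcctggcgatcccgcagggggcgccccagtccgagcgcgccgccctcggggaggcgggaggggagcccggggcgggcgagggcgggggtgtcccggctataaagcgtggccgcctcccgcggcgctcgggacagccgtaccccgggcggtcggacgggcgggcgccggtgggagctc
FOXA1 promoter: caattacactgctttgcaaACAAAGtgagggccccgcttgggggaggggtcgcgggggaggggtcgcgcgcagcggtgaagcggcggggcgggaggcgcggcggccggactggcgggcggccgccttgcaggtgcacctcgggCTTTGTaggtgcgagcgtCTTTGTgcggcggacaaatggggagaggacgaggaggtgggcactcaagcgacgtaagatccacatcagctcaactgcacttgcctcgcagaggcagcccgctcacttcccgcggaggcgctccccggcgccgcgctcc
The 7 motifs were the SOX cores ACAAAG and ACAATG, the E-boxes CAGCTG and CAGATG, the N-box CACNAG, the CDX core TTTATG and the forkhead core TGTTTAC. None of these windows holds 2 motifs whose matches overlap. Among the windows of the factors that fell, ATOH1 has 2 N-box matches, CREB3L1 and FOXA3 have 1 CAGCTG each, and SPDEF has none of the 7. FOXA1 has 3 ACAAAG matches, and NEUROG3, whose window is not shown, has 1 ACAAAG and 1 CAGCTG. Of all 35116 promoter windows of this length, 16.1% hold ACAAAG, 17.9% CAGCTG and 38% the N-box, so single matches are common. The other shares are 10.8% for ACAATG, 14.7% for CAGATG, 10.6% for TTTATG and 3.42% for TGTTTAC. The CREB3L1, FOXA3 and FOXA1 windows lie wholly inside their gene spans in the count table, downstream of the start of the span, and a match describes letters only.

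Library totals ran from 31012775 to 48529770 counts. SOX9 itself checked the labels in part. It stood at 711 and 760 CPM (counts per 1000000 of the TMM-scaled library total) in the induced SOX9 libraries. The induced M303 libraries had 818 and 867 CPM, against 357 to 405 in the other 8. This sets the induced SOX9 and M303 libraries apart from the rest. It cannot check which of them carry the wild-type construct, or which GFP libraries were induced. The 10 epithelial markers were all at 1 CPM or more. The summed goblet markers took 1410 to 1830 CPM in the 10 libraries other than induced SOX9 and 874 to 909 in those 2. AGR2 carried most of the goblet sum, with a mean of 1130 CPM before and 625 after SOX9 induction. CLCA1, a scarce goblet marker, went the other way, from 0.0535 to 0.895 CPM. The summed markers of Paneth cells, another secretory cell, took 138 to 173 CPM against 839 to 850. LYZ, the lysozyme of Paneth cells, had a mean of 51.8 CPM before and 584 after SOX9 induction, and carried most of the sum only after it. PLA2G2A had the larger mean before SOX9 induction, with 105 CPM, and 201 CPM after it. Of 9 enteroendocrine markers 1 had a mean of at least 1 CPM, PCSK1 and SST were at 0 in every library, and the sum was 1.86 to 3.91 CPM against 2.35 to 2.41. Tuft markers summed to 7.14 to 10.9 CPM against 14.1 to 14.3, fibroblast markers to 1.44 to 2.8 against 2.58 to 2.92, and endothelial markers to at most 0.46 CPM. In the blood list every marker but LYZ had a mean under 1 CPM, and CD3E was at 0. The part of these shifts in the results below was not tested. In bulk RNA, fewer cells of a type and less RNA per cell cannot be told apart.

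Per kilobase of exon, which allows levels of different genes to be compared, the factors fell into a well-expressed and a scarce set in the 6 uninduced libraries. CREB3L1 was highest, with a mean level of 23.8 ± 1.41 CPM per kb (SD, n = 6, lowest 21.3, highest 25.1). FOXA1 followed at 16.7 ± 0.99 and ATOH1 at 16.2 ± 0.882 CPM per kb, and their ranges overlapped. SPDEF had 11.8 ± 1.04 CPM per kb, and its range overlapped that of FOXA3 at 9.97 ± 0.693, which in turn overlapped that of FOXA2 at 8.63 ± 0.44. These 6 were ATOH1 and the factors listed as goblet, of which the forkhead factors also take part in endocrine differentiation. The 4 scarce ones were both enteroendocrine factors, the commitment factor GFI1 and the maturation factor BHLHA15. The level per kb was 1.24 ± 0.307 for NEUROG3, 0.676 ± 0.279 for BHLHA15, 0.59 ± 0.12 for GFI1 and 0.123 ± 0.108 for INSM1. The ranges of NEUROG3 and BHLHA15 overlapped, as did those of BHLHA15 and GFI1. After SOX9 induction the order of the 6 well-expressed factors by mean CPM per kb was FOXA1 (18.1), CREB3L1 (10.6), FOXA2 (8.98), ATOH1 (6.74), FOXA3 (6.31) and SPDEF (4.89), so that ATOH1, FOXA3 and SPDEF stood below FOXA2.

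**Figure D1:**
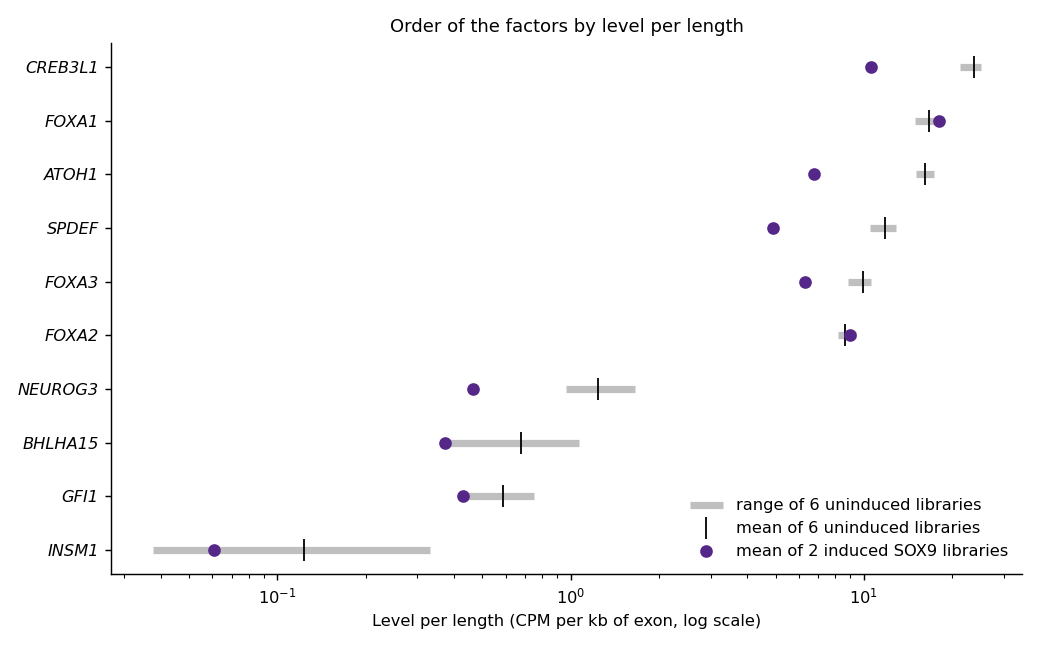
Level of each factor per kilobase of exon on a log axis (CPM per kb). The grey bar spans the 6 uninduced libraries, the black tick is their mean and the purple point is the mean of the 2 induced SOX9 libraries. The points of ATOH1, SPDEF, CREB3L1, FOXA3, NEUROG3 and GFI1 lie left of their bars, that of FOXA1 lies to the right of its bar, and those of FOXA2, BHLHA15 and INSM1 lie within theirs.

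ATOH1 (ENSG00000172238, chromosome 4, 93828753 to 93830964, plus strand) opens the secretory fate. Its level in the SOX9 line was 33.3 and 37.8 CPM without doxycycline and 15.2 and 14.6 CPM with it. The M303 line had 38.5 and 35.9 CPM without and 29 and 34 CPM with doxycycline, and the GFP line had 35.5 and 34.5 CPM without and 37.4 and 32.5 CPM with it. Both induced SOX9 libraries were below the lowest of the other 10, and the GFP groups overlapped. The log2 fold change on SOX9 induction was -1.25 (SE 0.12, 95% CI -1.49 to -1.01, edgeR adjusted p = 5.83e-07). It was -0.24 (95% CI -0.47 to -0.01) on M303 induction and -0.0021 (95% CI -0.23 to 0.23) on GFP induction, each with an adjusted p of 1. GFI1 (ENSG00000162676, chromosome 1, 92473043 to 92486925, minus strand), the repressor that acts below ATOH1, was scarce. Its level was 2.76 and 3.8 CPM in the uninduced SOX9 line and 2.66 and 1.7 CPM in the induced one, and ranged from 2.23 to 3.54 CPM in the other 8 libraries. The induced pair was below the uninduced pair, but 1 of its libraries lay within the range of the other lines. Its log2 fold change of -0.57 (SE 0.32, 95% CI -1.24 to 0.09) did not pass the test (adjusted p = 0.453), and its interval reaches from a change close to that of ATOH1 to none.

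SPDEF (ENSG00000124664, chromosome 6, 34537802 to 34556333, minus strand), a goblet maturation factor, had 20.1 and 23.3 CPM in the uninduced SOX9 line and 8.84 and 9.89 CPM in the induced one. The M303 line had 24.7 and 20.2 CPM without and 17.6 and 18.9 CPM with doxycycline. The GFP line had 23.4 and 24.2 CPM without and 24.4 and 19.2 CPM with it. As for ATOH1, the induced SOX9 libraries were the lowest of the 12. The log2 fold change was -1.21 (SE 0.15, 95% CI -1.52 to -0.91, edgeR adjusted p = 1.72e-05). CREB3L1 (ENSG00000157613, chromosome 11, 46277662 to 46321409, plus strand) was the most abundant of the factors and the one with the smallest adjusted p. It had 85.5 and 98.2 CPM in the uninduced SOX9 line and 41.9 and 43.6 CPM in the induced one. The M303 line had 98.5 and 92.4 CPM without and 75.3 and 78.9 CPM with doxycycline, and the GFP line had 99.4 ± 2.4 CPM (SD, n = 2) without and 94.6 and 83 CPM with it. With doxycycline both libraries were below both uninduced libraries in all 3 lines, and the gap was widest in the SOX9 line. The log2 fold change was -1.10 (SE 0.09, 95% CI -1.29 to -0.92, adjusted p = 1.29e-07) on SOX9 induction, -0.31 (95% CI -0.49 to -0.12, adjusted p = 1) on M303 induction and -0.16 (95% CI -0.35 to 0.02, adjusted p = 1) on GFP induction.

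The 3 forkhead factors differed in their values. FOXA3 (ENSG00000170608, chromosome 19, 45863989 to 45873797, plus strand) had 22.4 and 18.8 CPM in the uninduced SOX9 line and 14.8 and 12 CPM in the induced one. It ranged from 18.2 to 24.3 CPM in the 8 libraries of the M303 and GFP lines, so the induced SOX9 libraries were the lowest of all. It fell by 0.61 on the log2 scale (SE 0.14, 95% CI -0.89 to -0.33, edgeR adjusted p = 0.0133). Without replicate 2 of the induced SOX9 libraries the adjusted p was 0.282, and without replicate 1 of the uninduced SOX9 libraries it was 0.131. FOXA1 (ENSG00000129514, chromosome 14, 37589552 to 37596059, minus strand) had 65.6 and 73.4 CPM without and 78.1 and 81.3 CPM with SOX9 induction. The induced pair was above the uninduced pair, yet the M303 and GFP lines reached 79 CPM. Its log2 fold change was 0.20 (SE 0.08, 95% CI 0.02 to 0.37) and did not pass the test (adjusted p = 0.287). FOXA1 overlaps TTC6 on the opposite strand, with 16 of its 4414 exon bases (0.362%) shared, and the counting did not use strand. FOXA2 (ENSG00000125798, chromosome 20, 22581005 to 22585455, minus strand) had 21.6 and 24.4 CPM without and 22.6 and 24.2 CPM with SOX9 induction. These pairs overlapped, and the log2 fold change was 0.02 (SE 0.12, 95% CI -0.23 to 0.27, adjusted p = 0.968). Within a library, the level of FOXA3 per kb divided by that of FOXA1 was 0.527 to 0.708 in the 10 other libraries and 0.394 and 0.306 in the induced SOX9 libraries. The ratio to FOXA2 was 0.941 to 1.33 against 0.805 and 0.607. Both ratios were therefore lowest in the induced SOX9 libraries, a description with no test. The ratio of SPDEF to ATOH1 per kb was 0.672 and 0.783 there, within the 0.642 to 0.81 of the other libraries. That of CREB3L1 to ATOH1 was 1.52 and 1.64 against 1.28 to 1.56, so 1 induced SOX9 library lay above the others.

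NEUROG3 (ENSG00000122859, chromosome 10, 69571698 to 69573422, minus strand), the factor that starts the enteroendocrine branch, had 2.49 and 1.8 CPM without and 1.14 and 0.314 CPM with SOX9 induction. The other 8 libraries held 1.49 to 2.69 CPM, so the induced SOX9 pair was again the lowest, on 10 to 114 reads per library. Its log2 fold change of -1.50 was the most negative of the 10 (SE 0.46, 95% CI -2.45 to -0.55) but did not pass the test (edgeR adjusted p = 0.0857). DESeq2 gave an adjusted p of 0.0309, no filter on low counts gave 0.0252, and leaving out replicate 1 of the induced SOX9 libraries gave a log2 fold change of -2.77 with an adjusted p of 0.0127. Leaving out replicate 2 of the induced SOX9 libraries instead gave -0.93 with an adjusted p of 0.653. With only the groups compared the adjusted p was 0.154. The size of the NEUROG3 change thus turned on which induced SOX9 library was kept. INSM1 (ENSG00000173404, chromosome 20, 20368104 to 20370949, plus strand), a zinc finger factor of endocrine cells, had 2 to 34 reads in a library, all 12 counts even. Mates of a pair were counted singly, and whether this gave the even counts was not tested. INSM1 had 0.107 and 0.338 CPM without and 0.284 and 0.0628 CPM with SOX9 induction, and the GFP line alone spread from 0.159 to 0.943 CPM. Its log2 fold change of -0.28 (95% CI -2.47 to 1.90, adjusted p = 0.95) leaves a change of either sign within the interval. BHLHA15 (ENSG00000180535, chromosome 7, 98211427 to 98212979, plus strand) had 6 to 32 reads, with 0.294 and 0.507 CPM without and 0.406 and 0.188 CPM with SOX9 induction. These pairs overlapped, and the log2 fold change was -0.39 (95% CI -1.91 to 1.12, adjusted p = 0.886). For INSM1 and BHLHA15 a change of the size seen for ATOH1 was not detectable at this depth.

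**Figure D2:**
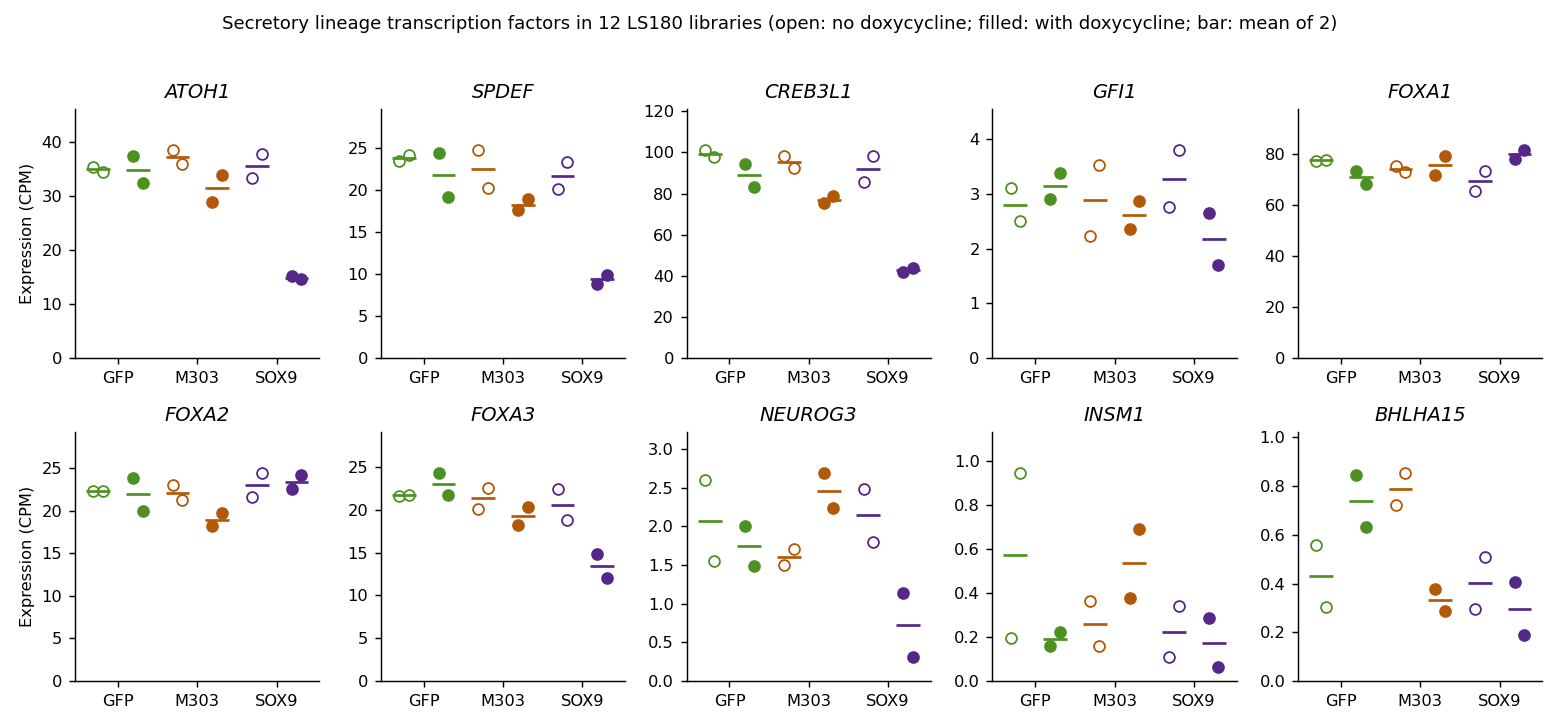
Level of each factor in CPM in the 12 libraries, by line. Open points are uninduced, filled points are induced with doxycycline and bars are means of 2 libraries; each panel has its own axis from 0. The filled SOX9 points of ATOH1, SPDEF, CREB3L1, FOXA3 and NEUROG3 are the lowest of their panels, and those of FOXA1 and FOXA2 are not.

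Of the 10 factors, 4 were called lower and 0 higher on SOX9 induction, where 2.97% of the 18219 genes tested were called, 1.16% lower and 1.81% higher. The median log2 fold change of the 10 was -0.59, against 0.01 over all genes tested. Both induced libraries were below both uninduced ones for 6 factors (21.5% of all genes) and above them for 1, FOXA1 (23.2% of all genes). The 6 were the 4 called factors with GFI1 and NEUROG3.

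Induction of M303 gives the response of the factors to the truncated protein. None of the 10 factors was called by edgeR (adjusted p = 1 for each), where 0.00549% of genes were called, namely SOX9 itself. Without adjustment 3 of the 10, and 662 of all genes, had a p under 0.05, and DESeq2 called 3 genes and none of the factors. The 3 were ATOH1, SPDEF and CREB3L1, with log2 fold changes of -0.24, -0.30 and -0.31. FOXA3 had -0.14 (95% CI -0.42 to 0.14), FOXA2 -0.22 (95% CI -0.48 to 0.03), FOXA1 0.03 (95% CI -0.15 to 0.20) and GFI1 -0.15 (95% CI -0.81 to 0.52). NEUROG3, at 1.5 and 1.71 CPM without and 2.69 and 2.24 CPM with M303 induction, had 0.62 (95% CI -0.28 to 1.52), the opposite sign to its value with SOX9. Both induced M303 libraries were below both uninduced ones for 5 factors, ATOH1, SPDEF, CREB3L1, FOXA2 and BHLHA15 (16.8% of all genes), and above them for NEUROG3 and INSM1 (17.1%). The median log2 fold change of the 10 was -0.19, against 0.00 over all genes.

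Induction of GFP measures what doxycycline and a control protein do. None of the 10 factors was called by edgeR, and 0% of all genes were. Without adjustment 0 of the 10 and 580 of all genes had a p under 0.05, and DESeq2 called 2 genes and none of the factors. The 6 well-expressed factors had log2 fold changes between -0.16 (CREB3L1) and 0.08 (FOXA3). The values farthest from 0 belonged to the factors with the fewest reads, INSM1 with -1.59 (95% CI -3.70 to 0.53) and BHLHA15 with 0.78 (95% CI -0.68 to 2.24). CREB3L1 and FOXA1 were lower in both induced GFP libraries than in both uninduced ones (13.8% of all genes), and BHLHA15 was higher in both (13.5%).

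**Figure D3:**
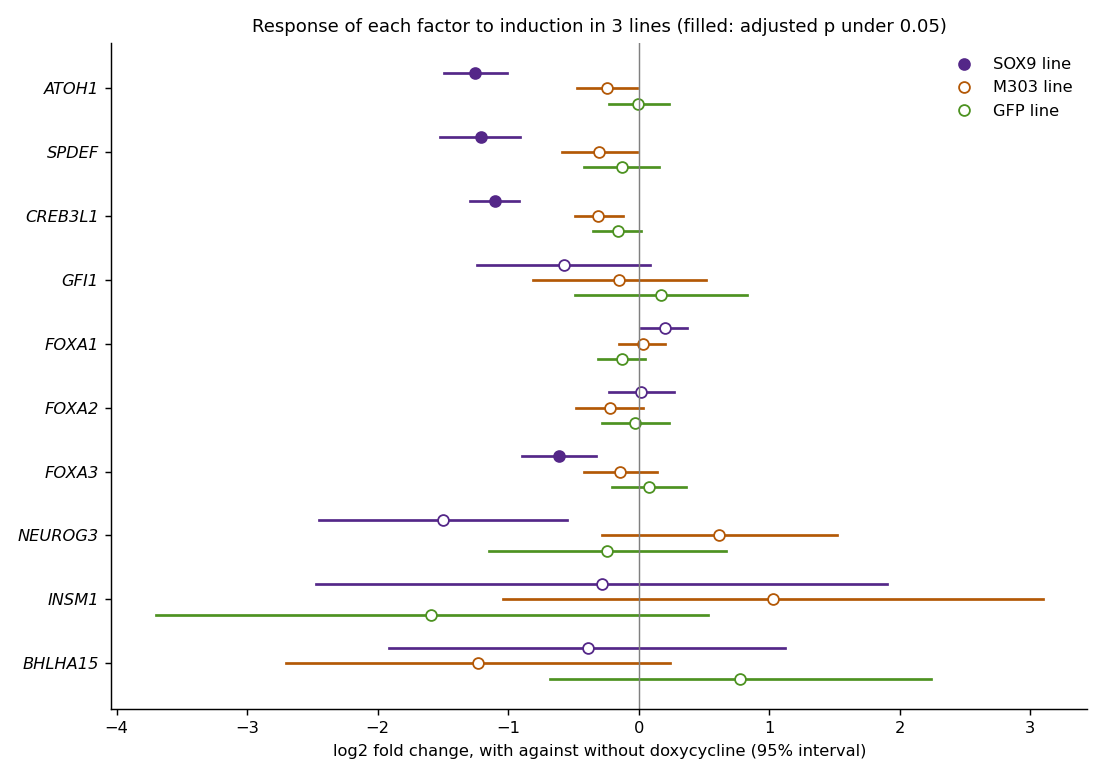
Log2 fold change of each factor with against without doxycycline in the SOX9, M303 and GFP lines, with 95% intervals. Filled points passed an adjusted p under 0.05; these are ATOH1, SPDEF, CREB3L1 and FOXA3 in the SOX9 line only, where their values run from -1.25 to -0.61.

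The differences between these inductions were tested directly as interaction terms. The SOX9 response was lower than the GFP response for 3 of the 10 factors and higher for none, where 0.895% of all genes were called, 0.263% lower and 0.631% higher. ATOH1 differed by -1.25 (SE 0.16, edgeR adjusted p = 1.14e-04), SPDEF by -1.09 (SE 0.20, adjusted p = 0.0056) and CREB3L1 by -0.94 (SE 0.13, adjusted p = 1.78e-04). FOXA3 differed by -0.69 (95% CI -1.09 to -0.30), which did not pass the test (adjusted p = 0.128). DESeq2 put FOXA3 at an adjusted p of 0.0495 and no filter on low counts at 0.0345. The SOX9 response was also lower than the M303 response for these 3 factors and higher for none, where 0.489% of all genes were called, 0.132% lower and 0.357% higher. ATOH1 differed by -1.01 (SE 0.16, adjusted p = 0.00202), SPDEF by -0.91 (SE 0.20, adjusted p = 0.0411) and CREB3L1 by -0.80 (SE 0.13, adjusted p = 0.00202). Both sets of differences rest on the same SOX9 libraries. The SPDEF difference from M303 is the least firm of the 6, since leaving out any of 6 libraries ended it. Leaving out replicate 1 or 2 of induced M303 gave adjusted p of 0.0679 and 0.167, and leaving out replicate 2 of uninduced M303 gave 0.256. Leaving out replicate 1 or 2 of induced SOX9 gave 0.282 and 0.074, and leaving out replicate 2 of uninduced SOX9 gave 0.186. With a replicate block it was 0.0714. For FOXA3 the difference from M303 was -0.47 (95% CI -0.86 to -0.07, adjusted p = 0.601), for NEUROG3 -2.12 (95% CI -3.43 to -0.81, adjusted p = 0.251, and 0.027 without replicate 1 of induced SOX9), for FOXA1 0.17 (95% CI -0.08 to 0.42) and for FOXA2 0.25 (95% CI -0.11 to 0.60). Between the M303 and GFP responses none of the 10 factors differed by edgeR (smallest adjusted p = 0.992), where 0.00549% of genes did. Unadjusted, 0 of the 10 and 717 of all genes had a p under 0.05, and DESeq2 called 1 gene and none of the factors. The intervals of that difference were -0.57 to 0.09 for ATOH1, -0.58 to 0.24 for SPDEF and -0.41 to 0.11 for CREB3L1.

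Without doxycycline the lines were compared for the state of the factors before induction. The SOX9 line against the GFP line gave 0 calls among the 10 by edgeR and 0% of all genes, with 0 of the 10 and 866 of all genes at an unadjusted p under 0.05. DESeq2 called 2 genes there and none of the factors. ATOH1 differed by 0.02 (95% CI -0.21 to 0.25), SPDEF by -0.14 (95% CI -0.43 to 0.15), CREB3L1 by -0.11 (95% CI -0.30 to 0.07) and FOXA3 by -0.08 (95% CI -0.36 to 0.20). The M303 line against the GFP line also gave 0 calls among the 10 by edgeR, where 0.00549% of genes were called, with 0 of the 10 and 1110 of all genes at an unadjusted p under 0.05 and 1 gene, no factor, called by DESeq2. ATOH1 differed there by 0.09 (95% CI -0.15 to 0.32) and CREB3L1 by -0.06 (95% CI -0.24 to 0.13).

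Other genes of these cell types, protein families and pathways were read from 7 lists on SOX9 induction. Like the factors, the lists were chosen with earlier results of these data known, so their counts are a description. Of all genes tested 1.16% were called lower. Of 30 goblet products 28 were tested, and 15 were lower and 0 higher, with a median log2 fold change of -0.79 against 0.01 over all genes. The 4 with the smallest adjusted p were REG4, a secreted lectin (274 ± 15.9 to 134 ± 3.2 CPM, SD, n = 2, log2 fold change -1.04), AGR2, a disulfide isomerase for mucins (1130 ± 37.4 to 625 ± 10.5 CPM, -0.85), MUC2, the main gel-forming mucin (66 ± 4.65 to 22.7 ± 2.89 CPM, -1.54), and ZG16, a granule lectin (14.1 ± 2.38 to 4.05 ± 0.804 CPM, -1.79). Of the 28 products, 7 were called lower against the GFP response and 3 against the M303 response (MUC2, REG4 and AGR2). Their median on M303 induction was -0.25. TFF3, the trefoil peptide of goblet cells, went from 193 ± 6.52 to 110 ± 1.42 CPM (log2 fold change -0.80, edgeR adjusted p = 0.0339). It had -0.52 on M303 induction, and its differences of -1.01 from GFP and -0.28 from M303 did not pass the test. Leaving out any 1 of the 4 SOX9 or of the 4 M303 libraries ended the TFF3 call, with adjusted p from 0.0844 (replicate 2 of uninduced M303) to 0.291 (replicate 2 of uninduced SOX9). Without replicate 1 or without replicate 2 of the induced SOX9 libraries 8 goblet products were called, all lower. The 4 factors and the 15 products called lower were measured in the same libraries, and the relation between them was not tested.

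Of 30 enteroendocrine products 11 were tested and 1 was lower, DDC, the aromatic amino acid decarboxylase (40.5 ± 2.27 to 21.3 ± 1.5 CPM, log2 fold change -0.92, edgeR adjusted p = 5.31e-06). The count was 2, both lower, with DESeq2, with no filter on low counts, without replicate 2 of induced GFP and without replicate 1 of uninduced SOX9. CHGA, the granin of endocrine cells, was at 0.232 ± 0.0499 and 0.273 ± 0.0134 CPM and did not pass the test (adjusted p = 0.967). Of 20 other enteroendocrine factors 10 were tested, 1 was higher and 0 lower, with a median of 0.10. PROX1, a homeobox factor of endocrine and neural cells, had log2 fold changes of 0.38 on M303 and 0.29 on GFP induction. The differences of its SOX9 response from these, 0.16 and 0.26, did not pass the test. On SOX9 induction it went from 14.1 ± 0.504 to 20.7 ± 2.39 CPM (log2 fold change 0.55, edgeR adjusted p = 0.0267). That call was lost without any 1 of the 4 SOX9 libraries, with adjusted p of 0.0746 and 0.196 without replicates 1 and 2 of the uninduced and 0.0526 and 0.44 without replicates 1 and 2 of the induced libraries.

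Relatives of the factors in the same protein families were counted next. Of 20 listed 14 were tested, with 2 higher, 1 lower and a median of 0.04. EHF, an ETS factor as SPDEF is, rose from 418 ± 8.3 to 589 ± 3.73 CPM (log2 fold change 0.49, edgeR adjusted p = 1.08e-04). Its rise exceeded that with GFP by 0.52 (adjusted p = 0.0056), and its difference of 0.41 from M303 did not pass the test (adjusted p = 0.075). FOXQ1, a forkhead factor, rose from 90.3 ± 15.9 to 153 ± 3.73 CPM (0.76, adjusted p = 2.84e-04), and this rise exceeded that with M303 by 0.72 (adjusted p = 0.0435). The FOXQ1 difference from GFP, 0.65, did not pass the test (adjusted p = 0.0634). ELF3, an epithelial ETS factor, went from 52 ± 0.0174 to 39.9 ± 3.63 CPM (log2 fold change -0.39, adjusted p = 0.0466). It had -0.31 on M303 and -0.01 on GFP induction, and its differences of -0.08 from M303 and -0.37 from GFP did not pass the test. The ELF3 call was lost with library totals as the only scaling (adjusted p = 0.0742), with a replicate block (0.0681) and without any 1 of the 4 SOX9 libraries or replicate 1 of uninduced M303, at adjusted p from 0.053 to 0.425. The relatives of CREB3L1 gave values of 0.05 for CREB3, 0.29 for CREB3L2 and 0.03 for CREB3L4 on the log2 scale, none of which passed the test.

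Of 14 other goblet and secretory cell factors 13 were tested, with 2 higher, 3 lower and a median of -0.11. One of the 2 is SOX9, the induced gene. RUNX1, a runt factor, rose from 20.5 ± 1.05 to 45.6 ± 0.574 CPM (log2 fold change 1.15, edgeR adjusted p = 5.83e-07) by more than with M303 (difference 1.14, adjusted p = 3.42e-04) and by more than with GFP (1.31, adjusted p = 4.39e-05). KLF4, a zinc finger factor of goblet differentiation, fell from 50.2 ± 0.859 to 29.6 ± 0.461 CPM (log2 fold change -0.76, adjusted p = 4.04e-05). Of the 3 lower genes KLF4 alone was also called lower against the GFP response, and none was against the M303 response. CDX2, the intestinal homeobox factor, went from 176 ± 24.9 to 128 ± 5.03 CPM (-0.46, adjusted p = 0.00418), with adjusted p of 0.111 when replicate 2 of uninduced SOX9 was left out and 0.0776 when replicate 1 of induced SOX9 was. In each of these cases 3 genes of the list were called, 2 higher and 1 lower. XBP1, which builds the secretory endoplasmic reticulum, had 171 ± 3.38 and 158 ± 8.43 CPM and did not pass the test (adjusted p = 0.586).

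The Notch list was read next, since Notch signalling restrains ATOH1 through HES1. All 26 listed genes were tested, with 3 higher, 1 lower and a median of -0.01. Against the GFP response 1 was called, JAG1, and against the M303 response 0. HES1, the repressor of ATOH1, stood at 32 ± 1.98 and 28.1 ± 0.619 CPM (log2 fold change -0.19, edgeR adjusted p = 0.439). JAG1, a Notch ligand, rose from 239 ± 1.78 to 340 ± 8.27 CPM (0.51, adjusted p = 1.26e-04). DLL4, another ligand, went from 39.8 ± 1.5 to 29.3 ± 1.76 CPM (-0.44, adjusted p = 0.00985), MAML2, a coactivator, from 10.5 ± 1.74 to 19.5 ± 0.286 CPM (0.89, adjusted p = 0.00574) and ADAM10, a protease that cleaves Notch, from 228 ± 17.2 to 283 ± 10.5 CPM (0.31, adjusted p = 0.0322). DLL4 lost its call when replicate 2 of uninduced (adjusted p = 0.105) or of induced SOX9 (0.2) was left out, and MAML2 when replicate 2 of uninduced SOX9 was (0.0906). ADAM10 lost its call without the latter (0.331), without replicate 1 (0.343) or replicate 2 (0.161) of induced SOX9, and with a replicate block (0.0606). Without replicate 2 of uninduced SOX9, 1 gene of the list was called, and without replicate 2 of induced SOX9 2 were, all higher. With no filter on low counts 7 were called, 4 higher and 3 lower.

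Secretory cell maturation genes, among which BHLHA15 is known to act, gave 2 lower and 0 higher of 19 tested (20 listed), with a median of -0.07. Against the GFP response and against the M303 response 0 were called. RAB27B, a GTPase of granule docking, went from 45.1 ± 0.925 to 32.5 ± 0.237 CPM (log2 fold change -0.47, edgeR adjusted p = 0.0133), and SDF2L1, an endoplasmic reticulum chaperone cofactor, from 67.1 ± 1.53 to 50.9 ± 3.64 CPM (-0.40, adjusted p = 0.048). Without replicate 1 or replicate 2 of induced SOX9 neither was called, with adjusted p of 0.107 and 0.129 for RAB27B and 0.0964 and 0.425 for SDF2L1. RAB27B was also lost without replicate 1 of uninduced SOX9 (0.0567). SDF2L1 was also lost without either uninduced SOX9 library (0.136 and 0.119) or replicate 1 of uninduced M303 (0.0553), with a replicate block (0.0533) and with library totals alone (0.0712).

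**Figure D4:**
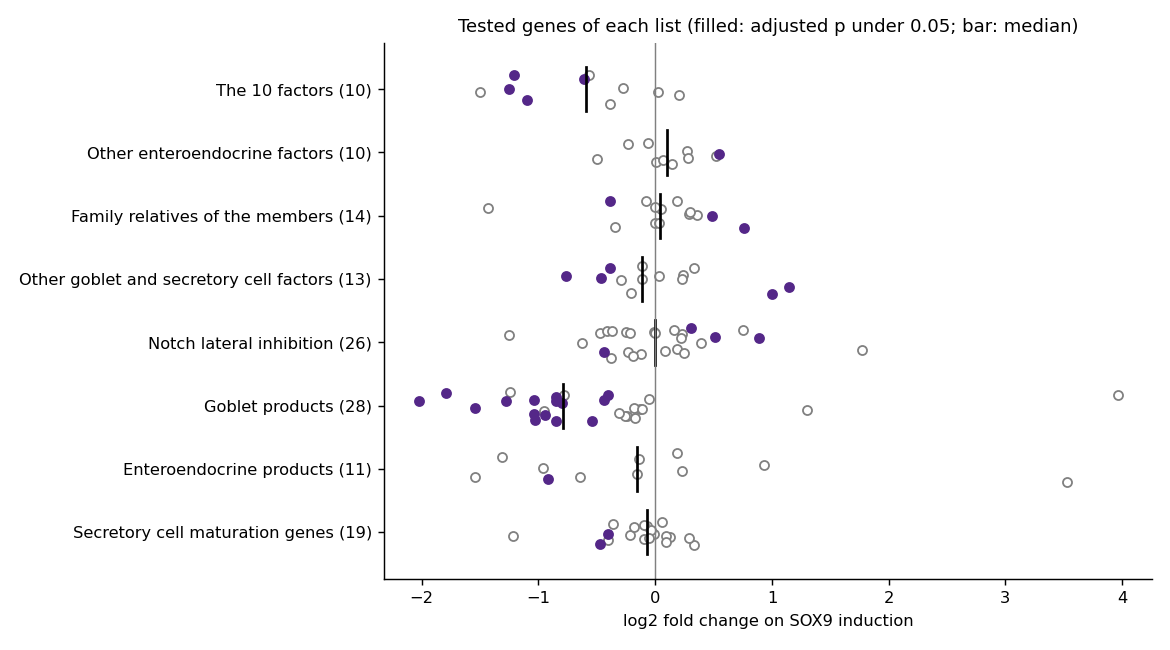
Log2 fold change on SOX9 induction of every tested gene in the 10 factors and the 7 lists, with the number tested in brackets. Filled points passed an adjusted p under 0.05 and black bars are medians, which stand at -0.59 for the 10 factors and -0.79 for goblet products and between -0.16 and 0.10 for the other 6 lists.

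The expression patterns of the 4 called factors were compared with those of 13126 other genes by Pearson's r of log2 CPM over the 12 libraries. These points share libraries, and the induced SOX9 pair holds the lowest values of all 4 factors, so r is a description. Nearest to ATOH1 were CREB3L1 (r = 0.98), MYO1A (0.98), a brush border myosin, and INSIG1 (0.98), a sterol-responsive membrane protein. Nearest to SPDEF were CREB3L1 (0.99), LIMA1 (0.98), an actin-binding protein, and ATOH1 (0.98), and nearest to CREB3L1 were SPDEF (0.99), PIGR (0.99), the epithelial immunoglobulin receptor, and ATOH1 (0.98). Nearest to FOXA3 were AKR1B10 (0.95), an aldo-keto reductase, RFLNA (0.95) and TNFRSF10A (0.94), a death receptor. CREB3L1 thus ranked first for both ATOH1 and SPDEF, while SPDEF ranked 7 for ATOH1. For FOXA3 the highest-ranked of the 10 factors was ATOH1, at rank 26 (r = 0.90). Over the 10 libraries other than induced SOX9, a choice made after seeing the data, r was 0.83 for ATOH1 with SPDEF and with CREB3L1 and 0.93 for SPDEF with CREB3L1. FOXA3 had r of only 0.31 there with ATOH1 and with SPDEF, and 0.30 with CREB3L1. In those 10 libraries FOXA2 had r of 0.90 with ATOH1, 0.91 with SPDEF and 0.89 with CREB3L1, against -0.16, -0.04 and -0.07 over all 12. By Spearman's rho over the 12 libraries, CREB3L1 had 0.87 with ATOH1 and 0.92 with SPDEF. FOXA3 had a rho of 0.47 with ATOH1, 0.59 with SPDEF and 0.44 with CREB3L1.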

How the data were processed

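RNA of 12 LS180 libraries was read in pairs of 150 bp. The authors deposited 1 table of raw counts, with a value for every gene and library. STAR 2.7.0a served as aligner, hg38 as genome and featureCounts as counter, per the submitters' processing notes. Per the file headers, this was featureCounts 2.0.1 with the Ensembl release 101 annotation, with no paired-end and no strand option and without reads that map to several places. Mates were therefore counted singly, so counting error is larger than the totals imply, and overlapping genes on opposite strands cannot be told apart.

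All 12 libraries were fitted in edgeR 4.0.16 (R 4.3.3) with the robust quasi-likelihood F-test, 1 mean per group, TMM factors (0.981 to 1.02) and filterByExpr, which kept 18219 genes. With 6 residual degrees of freedom the biological coefficient of variation came to 10.6%. Over the tested genes with an average above 1 CPM, the median SE of a log2 fold change was 0.12 for SOX9 induction. It was 0.17 for the difference between SOX9 and M303 induction. Scarce factors had a larger SE, such as 1.05 for INSM1 on SOX9 induction. Calls are at a Benjamini-Hochberg adjusted p under 0.05 over all genes tested, and intervals are 95%. CPM and CPM per kb of exon are the deposited counts over TMM-scaled totals. The self-test used simulated counts. There were 8 comparisons.

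Alternatives were RLE factors, library totals alone, DESeq2 1.42.0, no filter, a filter of 1 CPM in 2 libraries, a replicate block, only the compared groups, and each library left out. No pair of libraries within a group was identical or agreed within sampling noise. The members and lists were chosen with earlier results of these data known. Named are the 10 factors, SOX9, up to 4 called genes of each list with the smallest adjusted p, MUC2, TFF3, CHGA, LYZ, HES1, CDX2, XBP1 and KLF4, and the 3 genes most like each called factor. CREB3, CREB3L2 and CREB3L4 are named besides as relatives of CREB3L1, after their values were seen, and marker genes as checks.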

Additional observations from a re-analysis of the deposited data

Results flagged for a closer look

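These 6 differences stand out because a factor responded differently to the same drug in different lines, by the test of the difference itself. ATOH1 differed between SOX9 and GFP induction by -1.25 on the log2 scale, SPDEF by -1.09 and CREB3L1 by -0.94. Between SOX9 and M303 induction ATOH1 differed by -1.01, SPDEF by -0.91 and CREB3L1 by -0.80. All of these rest on the same 4 libraries of the SOX9 line. With 2 libraries per group, single libraries could not be checked for standing apart within their group.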

How the results depend on the processing

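All alternatives kept the direction of the 4 factors called on SOX9 induction, and those of ATOH1, SPDEF and CREB3L1 kept their calls on SOX9 induction and against GFP under every alternative run. Genes called rose without a filter on low counts to 9 (M303 induction), 4 (GFP induction), 270 (SOX9 against GFP induction), 147 (SOX9 against M303 induction), 11 (M303 against GFP induction), 17 (uninduced SOX9 line) and 22 (uninduced M303 line). DESeq2 gave 3 (M303 induction), 2 (GFP induction), 139 (SOX9 against M303 induction) and 2 (uninduced SOX9 line). Only the compared groups gave 3 (M303 induction) and 1 (uninduced SOX9 line). Leaving out 1 library gave 231 to 675 for SOX9 induction, 1 to 2 for M303 induction, 0 to 9 for GFP induction, 95 to 229 for the difference of SOX9 from GFP, 57 to 107 for the difference of SOX9 from M303, 1 to 12 for the difference of M303 from GFP, 0 to 39 for the uninduced SOX9 against the GFP line, 0 to 56 for the uninduced M303 against the GFP line. With an arm of 1 library the test assumes that it varies like the others. Besides the left-out libraries, the alternatives called 4 or 5 factors for SOX9 induction. Against GFP they called 3, or 4 with DESeq2 and with no filter on low counts, and against M303 2 or 3. Leaving out a library could end the FOXA3 call on SOX9 induction and the SPDEF call against M303. The adjusted p of the FOXA3 fall rose to at most 0.282, and NEUROG3 ran from -2.77 to -0.93.

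The sign turned only for factors without a call. ATOH1 in GFP induction was 0.013 with library totals, 9.42e-05 without a filter and 0.00011 with a filter of 1 CPM, and FOXA2 in the uninduced M303 line was 0.00022 with library totals. Over the libraries left out in turn, ranges that cross 0 were as follows. In SOX9 induction these were FOXA2 -0.066 to 0.11, INSM1 -1.77 to 0.74 and BHLHA15 -1.08 to 0.044. In M303 induction these were GFI1 -0.44 to 0.23 and FOXA1 -0.041 to 0.095. In GFP induction these were ATOH1 -0.11 to 0.095, SPDEF -0.31 to 0.038, FOXA2 -0.16 to 0.093 and NEUROG3 -0.57 to 0.17. In the difference of SOX9 from GFP these were FOXA2 -0.072 to 0.18 and INSM1 -0.24 to 2.32. In the difference of M303 from GFP these were SPDEF -0.34 to 0.013 and GFI1 -0.61 to 0.057. In the uninduced SOX9 against the GFP line these were ATOH1 -0.073 to 0.11, GFI1 -0.026 to 0.44, FOXA2 -0.047 to 0.13, FOXA3 -0.21 to 0.044, NEUROG3 -0.27 to 0.46, INSM1 -2.39 to 0.17 and BHLHA15 -0.54 to 0.39. In the uninduced M303 against the GFP line these were SPDEF -0.23 to 0.054, GFI1 -0.33 to 0.34, FOXA2 -0.072 to 0.049, FOXA3 -0.11 to 0.058, NEUROG3 -0.69 to 0.047 and INSM1 -1.85 to 0.39. For these values the cause was not tested. The lowest read numbers were those of INSM1 (2 to 34 per library) and BHLHA15 (6 to 32). Another scaling moved the median of all genes by at most 0.033.

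Replicate numbers did not pair the libraries: deviations of same-numbered libraries correlated at -0.03 to 0.02. With a replicate block 452 genes and 4 factors were called on SOX9 induction, 139 genes and 3 factors against GFP, and 78 genes and 2 factors against M303, where SPDEF had -0.92 (adjusted p = 0.0714).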
